A study of Homo sapiens with 6 samples.

Results

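The untreated state of PC3 cells was described from the 2 libraries whose titles call them PC3 control, out of 6 libraries in the series. PC3 is an established human prostate cancer line that was derived from a bone metastasis, and the treatment label of both libraries is none. The cells grew in RPMI medium with fetal bovine serum and antibiotics, and total RNA was prepared for sequencing with a TruSeq kit. The deposited tables of these libraries also carry the word Input in their names; the labels do not say what it means, so whether they served as inputs of another assay is not known here. The other 4 libraries came from cells given heme, and they enter no value below. Nothing in the labels says whether the 2 control libraries came from separate cultures, so the spread between them may be technical. With 1 group of 2 libraries there is no test, and every statement is a level with its spread between replicate 1 and replicate 2.

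Prostate glands hold luminal secretory cells, which make prostate-specific antigen, and basal cells, which rest on the basement membrane and carry their own keratins and integrins. Most prostate cancers keep the luminal programme. PC3 is widely used as a model of androgen-independent disease. Carcinoma cells can also secrete chemokines, small proteins that attract white blood cells. Those with a Glu-Leu-Arg motif, such as CXCL8, attract neutrophils through the receptors CXCR1 and CXCR2.

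Genes of this chemokine family were among the most abundant messages of the untreated cells, and 6 of them lie close together on chromosome 4. The 120 bases before the start of each are shown because all 6 share the same 9 letters at a similar place. Sequences are from RefSeq (GRCh38.p14), 5′ to 3′ on the strand of the gene, and capitals mark GGAATTTCC, the letters of a site type bound by NF-kB, a transcription factor of inflammation.
CXCL1: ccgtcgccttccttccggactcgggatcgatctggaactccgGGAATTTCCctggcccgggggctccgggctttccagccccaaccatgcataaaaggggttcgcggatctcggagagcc
CXCL2: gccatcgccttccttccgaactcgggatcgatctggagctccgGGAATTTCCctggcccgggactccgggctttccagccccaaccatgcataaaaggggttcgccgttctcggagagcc
CXCL3: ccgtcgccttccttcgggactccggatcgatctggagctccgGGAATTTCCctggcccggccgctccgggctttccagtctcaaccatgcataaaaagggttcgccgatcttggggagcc
CXCL5: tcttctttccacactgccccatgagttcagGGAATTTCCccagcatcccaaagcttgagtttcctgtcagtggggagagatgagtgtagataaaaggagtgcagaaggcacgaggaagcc
CXCL6: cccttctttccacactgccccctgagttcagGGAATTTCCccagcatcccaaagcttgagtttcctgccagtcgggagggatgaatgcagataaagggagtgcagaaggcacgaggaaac
CXCL8: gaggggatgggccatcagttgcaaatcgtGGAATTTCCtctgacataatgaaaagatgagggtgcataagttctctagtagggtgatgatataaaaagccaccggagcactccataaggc

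These stretches are chr4:73869273-73869392 (+ strand) for CXCL1, chr4:74099196-74099315 (− strand) for CXCL2 and chr4:74038690-74038809 (− strand) for CXCL3. For CXCL5 the stretch is chr4:73998678-73998797 (− strand), for CXCL6 chr4:73836558-73836677 (+ strand) and for CXCL8 chr4:73740449-73740568 (+ strand). The motif begins 78 bases before the start in CXCL1 and CXCL3, 77 in CXCL2, 90 in CXCL5, 89 in CXCL6 and 91 in CXCL8. Searched on both strands, it occurs in 162 of 35116 RefSeq promoter windows, each from 250 bases before to 50 after a gene start, or 0.461%. The windows of CXCL12, CCL20, IL1B, IL6, IL11, CSF2 and TNF do not hold these 9 letters, and CCL2, CCL5, IL1A, LIF, CSF1 and CSF3 were not searched. Only this exact spelling was looked for, so a window without it may still hold an NF-kB site of another spelling. A match describes the sequence and is no evidence of binding in these cells, and the 6 genes are related copies that share much of their sequence.

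Levels are given in 2 units. CPM is the count of a gene per 1000000 gene counts of the library, and a gene is called expressed where it reached 1 CPM in both libraries. TPM, the usual length-scaled unit, also divides by the length of the merged exons of the gene, so levels are compared between genes in TPM only. Replicate 1 held 53129375 gene counts and replicate 2 held 54536772, so that 1 CPM stands for about 53.1 and 54.5 counts. A count of 0 allows up to 3 counts, or 0.0565 CPM in replicate 1 and 0.0550 CPM in replicate 2, for counting error only. In RNA from many cells, a high level in few cells and a low level in all of them cannot be told apart.

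Of 33514 gene symbols, 12547 were expressed (37.4%), and 10866 had no count in either library. Among the 19759 protein-coding genes, 11757 were expressed (59.5%) and 3258 had no count in either library (16.5%). These shares are the background for the gene groups below. Protein-coding genes took 99.1% of the counts. Long intergenic RNAs were expressed from 314 of 7268 genes and antisense RNAs from 397 of 5378. By level, 2468 genes between 100 and 1000 CPM held 56.2% of the counts, 6860 genes between 10 and 100 CPM held 28.6%, and 81 genes at 1000 CPM or more held 13.7%.

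Replicates gave nearly the same levels. Of 11786 genes with a mean of at least 2 CPM, 61 differed by more than 1.5-fold between them (0.518%), 26 higher in replicate 1 and 35 higher in replicate 2. The standard deviation over genes of the log2 ratio of replicate 2 to replicate 1 was 0.24 for genes between 2 and 10 CPM, 0.13 between 10 and 100 CPM and 0.10 above. Only MALINC1, an antisense RNA with 157 counts in replicate 1 and 75 in replicate 2, differed by more than 2-fold. SPARC, a matrix-binding secreted protein, had 327 and 181 counts. In the other direction, the epithelial genes CLDN3 (a tight-junction claudin) with 129 and 230 counts and RAB25 (a GTPase of apical recycling) with 119 and 213 counts were higher in replicate 2. RRAD, a small GTPase, had 101 and 194 counts. The 10 genes with the largest ratios also held AC112491.1, FOXD2-AS1, HIST1H2BC, SH3PXD2A and HTRA3, all with means under 4 CPM.

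**Figure D1:**
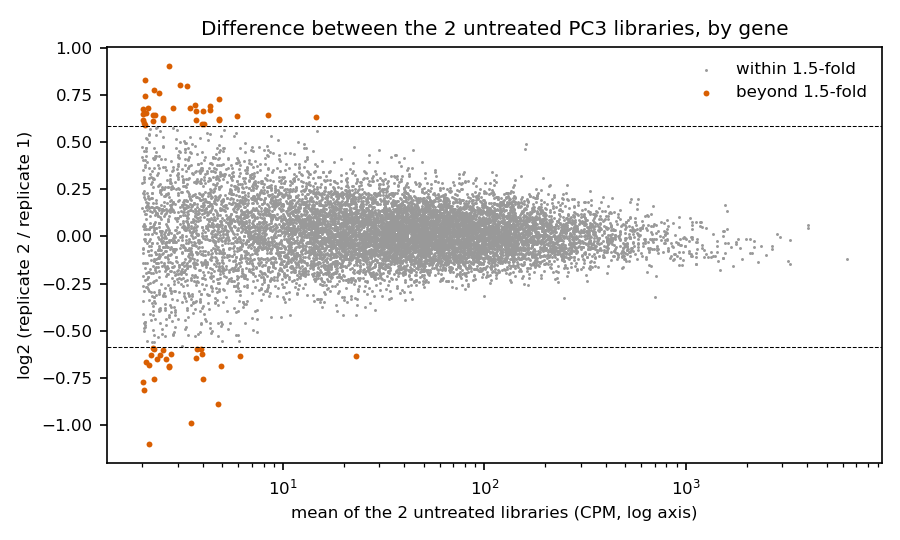
Each point is 1 of 11786 genes with a mean of at least 2 CPM. The horizontal axis is the mean of the 2 untreated libraries in CPM on a log axis, the vertical axis the log2 ratio of replicate 2 to replicate 1, and dashed lines mark 1.5-fold. The 61 genes beyond the lines (orange) lie mostly at low means, and the cloud narrows to the right.

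The most abundant messages were those of the mitochondrial genome. Its messenger RNAs held 11.1% of TPM in replicate 1 and 10.6% in replicate 2, led by MT-CO1, a subunit of cytochrome c oxidase, at 16278 and 14849 TPM. They took 2.73% and 2.66% of raw counts, which take no account of length. Among nuclear genes, the actin gene ACTB was at 4285 and 4434 TPM. Directly beside it stood PI3, which encodes the elastase inhibitor elafin, at 4364 and 4247 TPM, a mean of 4306 ± 83.4 (SD, n = 2). CXCL5 followed at 4143 and 3932 TPM (4037 ± 149, SD, n = 2) and LCN2, the iron-siderophore carrier lipocalin-2, at 4096 and 3915 TPM (4006 ± 128, SD, n = 2). The ranges of ACTB and PI3 overlap between replicates, as do those of CXCL5 and LCN2, so the order within each of these pairs is not resolved. For scale, the median expressed protein-coding gene was at 25.9 TPM and the 90th percentile at 164 TPM.

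Below these came genes of structure, iron storage and protein folding together with more secreted products. ACTG1, the other cytoplasmic actin, was at 3737 and 3701 TPM, and FTL, the ferritin light chain, at 3254 and 3231 TPM. KRT81, a keratin otherwise known from hair, was at 3025 and 3064 TPM, close to the chaperone HSP90AB1 at 3082 and 2957 TPM. CXCL8 was at 3040 and 2712 TPM and S100A9, a calcium-binding protein best known from neutrophils, at 2687 and 2522 TPM. HMGA1, a DNA-bending chromatin protein, was at 2431 and 2704 TPM. DKK1, a secreted inhibitor of Wnt signalling, was at 2392 and 2242 TPM. By raw counts, without regard to length, long or highly expressed genes such as the chaperone HSPA8 (3467 and 3128 CPM), the actin cross-linker FLNA (3305 and 3257 CPM) and the elongation factor EEF1A1 (3342 and 3052 CPM) joined ACTB and MT-CO1 among the 10 highest. MT-CO1 held 0.656% and 0.603% of counts, or 1.63% and 1.48% of TPM. The 100 highest genes held 15.7% and 15.3% of counts, and the 100 highest by TPM held 26.1% and 25.3% of TPM.

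Secreted signals on the list were plentiful. Of 37 cytokine, chemokine and growth factor genes, 31 were expressed (83.8%), against 59.5% of protein-coding genes. Together the 37 made up 2.39% and 2.35% of TPM, with a median of 126 TPM. The list was chosen with earlier results of these data known, so it does not stand for secreted signals in general. The neutrophil-attracting chemokines examined here were all present. Besides CXCL5 and CXCL8, CXCL3 was at 1651 and 1586 TPM, CXCL1 at 1139 and 1207 TPM, CXCL2 at 625 and 663 TPM and CXCL6 at 384 and 382 TPM. These are the 6 genes whose upstream sequences are printed above. Their levels spanned from 383 to 4037 TPM, and whether the 9 letters bear on the levels was not tested. In decreasing order the means ran CXCL5, CXCL8, CXCL3, CXCL1, CXCL2 and CXCL6, and no neighbours in this order overlapped between replicates. CXCL1, CXCL2 and CXCL3 are near copies of each other, so the split of reads among them is less certain.

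Interleukins and colony-stimulating factors varied more. IL1B, the precursor of the fever cytokine interleukin-1 beta, was at 1538 and 1574 TPM, and IL1A, its relative, at 74.7 and 73.5 TPM. IL6, which signals through gp130, was at 943 and 1001 TPM. CSF3, the granulocyte colony-stimulating factor, was at 923 and 1033 TPM, whereas CSF1, which acts on macrophages, was at 13.5 and 14.5 TPM and CSF2 at 32.7 and 30.1 TPM. The gp130 cytokines IL11 (574 and 657 TPM) and LIF (294 and 330 TPM) were expressed as well. CCL20, an attractant of cells with the receptor CCR6, was at 371 and 370 TPM.

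Growth factors on the list ranged as widely. TGFB2 was at 751 and 720 TPM, above TGFB1 at 116 and 121 TPM, and the EGF receptor ligands HBEGF (554 and 582 TPM), AREG (427 and 421 TPM) and TGFA (138 and 130 TPM) were expressed. EREG, another ligand of that receptor, was at 0.932 and 0.987 TPM, and EGF itself stayed under 1 CPM with 25 and 26 counts. The angiogenic factor VEGFA was at 119 and 131 TPM. CYR61, a matricellular protein and target of YAP, was at 1521 and 1505 TPM. At the other end, CXCL12, CCL2 and NRG1 had no count in either library, TNF had 3 and 3 counts and CCL5 had 3 and 4. Thus CXCL12, the ligand of CXCR4, and CCL2, a monocyte attractant, were not detected beside very high levels of the neutrophil attractants.

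**Figure D2:**
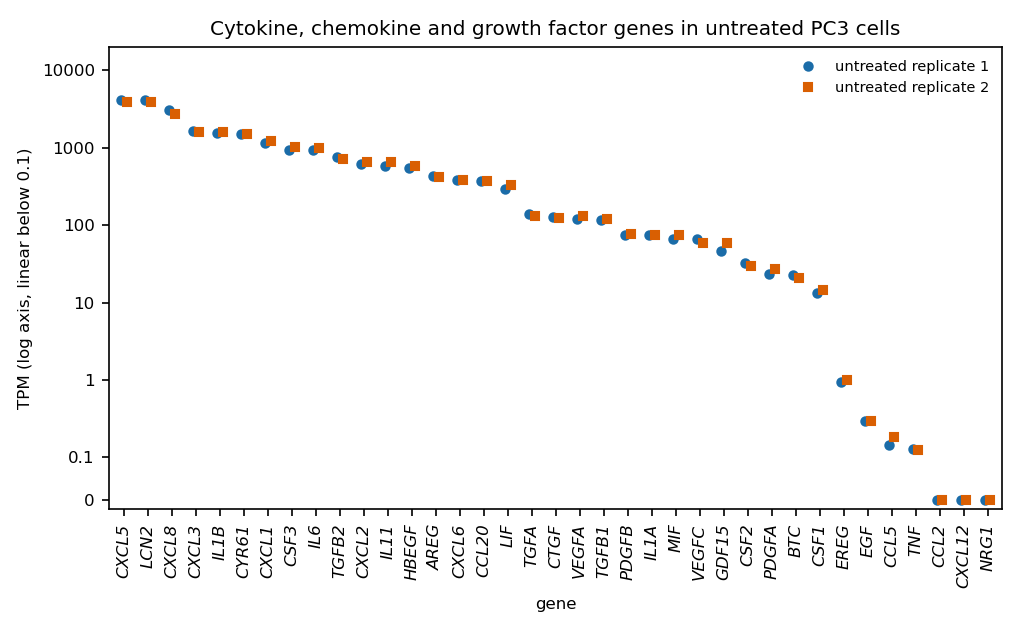
Points are the level in TPM (log axis, linear below 0.1) of the 37 secreted factors in untreated replicate 1 (circles) and replicate 2 (squares), in decreasing order of the mean. Levels run from a mean of 4037 TPM for CXCL5 to 0 for CCL2, CXCL12 and NRG1, and the symbols of the 2 libraries nearly coincide except at the lowest levels.

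The cells were epithelial by their markers. All 4 genes used to check this were high: EPCAM, an epithelial adhesion molecule, was at 531 and 525 TPM, CDH1, the gene of E-cadherin, at 286 and 284 TPM, KRT18 at 556 and 519 TPM and KRT8 at 323 and 318 TPM. Of 25 epithelial genes 24 were expressed, against 59.5% of protein-coding genes, with a median of 87.7 TPM. The claudin gene CLDN7 was at 266 and 285 TPM. The splicing regulators ESRP1 (108 and 104 TPM) and ESRP2 (83.7 and 88.2 TPM) and the transcription factor GRHL2 (22.1 and 19.02 TPM) belong to the same programme.

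Mesenchymal genes were expressed in part. Of 25 on the list, 17 reached 1 CPM (68%), against 59.5% of protein-coding genes, with a median of 10.5 TPM. Matrix genes led: COL6A2 was at 238 and 233 TPM, FN1, the gene of fibronectin, at 244 and 226 TPM, and COL6A1 at 200 and 204 TPM. N-cadherin, from CDH2, was at 29.6 and 28.7 TPM beside 286 and 284 TPM for CDH1, and CDH11 was at 23.5 and 21.7 TPM. The transcription factors that repress CDH1 differed among themselves. SNAI1 was at 48.1 and 54.1 TPM and SNAI2 at 20.1 and 22.1 TPM, whereas TWIST1 was at 5.38 and 5.24 TPM, ZEB1 at 1.22 and 0.926 TPM, and ZEB2 had 3 and 1 counts. VIM, the intermediate filament vimentin that is often used as a mesenchymal marker, was at 13.3 and 12.4 TPM, below the median expressed protein-coding gene. PRRX1 and TWIST2 had no count in either library, and COL1A2 and COL3A1 had at most 4.

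**Figure D3:**
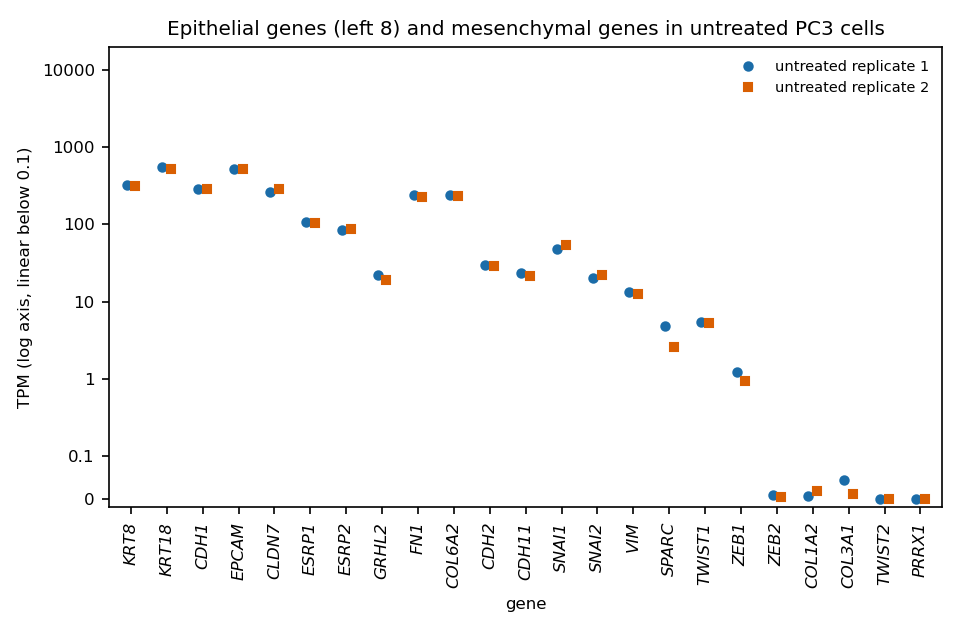
Epithelial genes (left) and mesenchymal genes (right) are shown by their level in TPM (log axis, linear below 0.1) in untreated replicate 1 (circles) and replicate 2 (squares). The epithelial genes shown lie between 19.02 and 556 TPM, and the mesenchymal ones spread from FN1 at 244 and 226 TPM down to 0 for TWIST2 and PRRX1.

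Keratins, which form the intermediate filaments of epithelia, showed a mixture of luminal, basal and hair types. Of 55 keratin genes 19 were expressed, against 59.5% of protein-coding genes, and 12 had no count in either library. The family made up 0.766% and 0.782% of TPM. After KRT81, the highest were KRT7 (1066 and 1115 TPM), KRT17 (679 and 704 TPM), KRT75 (564 and 590 TPM) and KRT18. KRT19, another simple-epithelium keratin, was at 517 and 508 TPM, and KRT6B and KRT6A, known from wounded and basal skin, at 314 and 333 TPM and at 115 and 125 TPM. KRT86, another hair keratin, was at 35.7 and 28.3 TPM. The keratins that define basal cells were low: KRT5 had 35 and 44 counts and KRT14 had 13 and 16, under 1 CPM in each library. Intestinal KRT20 had 2 and 6 counts. Near-identical keratin copies (KRT6A and KRT6B, KRT81 and KRT86) may trade reads.

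Most other basal genes on the list did not follow KRT5 and KRT14. Of 18 basal-epithelium genes 15 were expressed (83.3%), against 59.5% of protein-coding genes. KRT5, KRT14 and NGFR were the members below 1 CPM. Laminin genes of the basement membrane under basal cells were high, with LAMB3 at 647 and 661 TPM and LAMA3 at 194 and 184 TPM. The receptor subunits ITGB4 (146 and 135 TPM) and ITGA6 (116 and 104 TPM) were expressed too. SFN, the cell-cycle protein 14-3-3 sigma, was at 505 and 620 TPM, and CAV1, the caveolar coat protein, at 448 and 415 TPM. TP63, the transcription factor that specifies basal cells, was at 2.34 and 2.51 TPM, and NGFR, a basal surface receptor, had 27 and 39 counts. Hemidesmosome genes of the list were not uniform: DST, a cytoskeletal linker, was at 7.11 and 6.52 TPM and COL17A1, a transmembrane collagen, at 1.74 and 1.56 TPM.

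Prostate identity genes were present in part, and the prostate kallikreins and PSMA were at or near 0. KLK3, which encodes prostate-specific antigen, FOLH1, which encodes the membrane antigen PSMA, and the transcripts PCA3, NPY and KLK11 had no count in either library. KLK2 had 1 and 0 counts, KLK4 had 2 and 1, MSMB had 1 and 0, and TRPM8 had 1 and 5. TMPRSS2, a surface protease, had 26 and 30 counts, under 1 CPM in both libraries. Of the genes set to check the prostate label, KLK3 and FOLH1 were thus not detected, whereas the lineage factor HOXB13 was expressed.

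Other prostate genes differed widely in level. HOXB13, a homeobox factor restricted to the posterior body, was at 6.67 and 6.59 TPM with 321 and 328 counts. SPDEF, an ETS factor of secretory epithelium, was at 61.6 and 62.4 TPM. FOXA1, a pioneer factor that opens chromatin for other factors, was at 62.1 and 64.4 TPM. Surface proteins were among the higher members. STEAP1 was at 163 and 164 TPM, and STEAP2 at 19.3 and 18.8 TPM. SLC45A3, the gene of prostein, was at 25.1 and 25.0 TPM. AMACR, an enzyme of branched fatty acid oxidation used in diagnosis, had 94 and 84 counts, with 64.8% of its exonic bases shared with other genes. ACPP, the gene of prostatic acid phosphatase, had 74 and 81 counts, and PSCA had 44 and 61, on either side of 1 CPM. In all, 12 of 23 genes of the list were expressed, close to the share among protein-coding genes, and 5 had no count in either library.

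**Figure D4:**
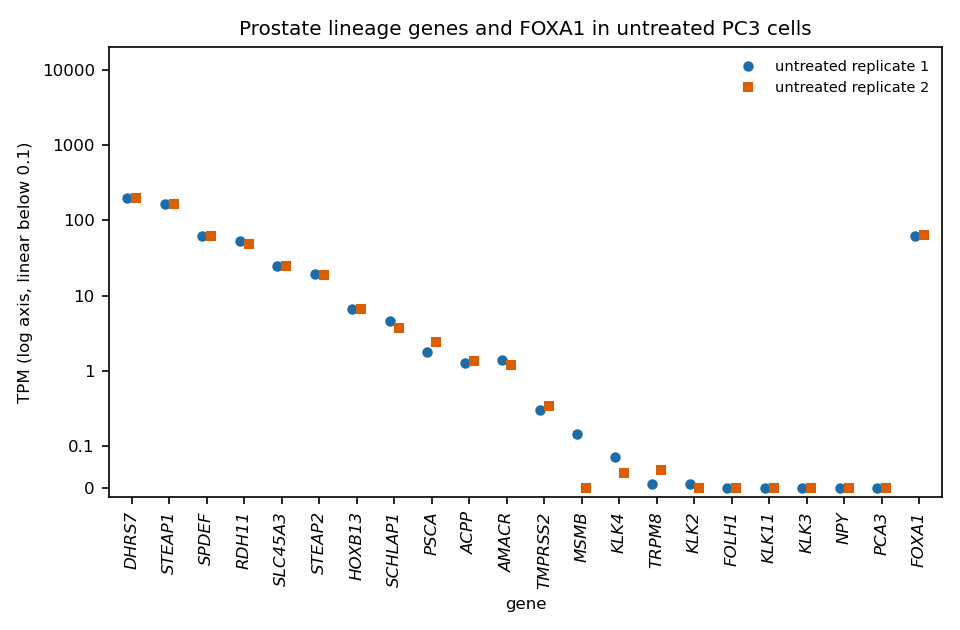
Levels in TPM (log axis, linear below 0.1) of 21 of the 23 prostate lineage genes in decreasing order, then FOXA1, in untreated replicate 1 (circles) and replicate 2 (squares). DHRS7 is the highest shown, STEAP1 follows at 163 and 164 TPM, HOXB13 lies at 6.67 and 6.59 TPM, and FOLH1 and KLK3 are at 0.

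Of the genes of androgen metabolism and response, 11 of 14 genes were expressed (78.6%), against 59.5% of protein-coding genes. The enzymes SRD5A1 (48.6 and 49.8 TPM) and SRD5A3 (33.7 and 32.4 TPM) reduce steroids, and AKR1C3, which makes testosterone from its precursor, was at 7.33 and 5.77 TPM. FKBP5, a chaperone gene induced by steroid hormones, was at 13.4 and 13.6 TPM. UGT2B17, which inactivates androgens, had no count in either library and UGT2B15 had 0 and 1. Other nuclear receptors were present, with 14 of 20 expressed (70%), against 59.5% of protein-coding genes. PPARD, a fatty acid sensor, was at 120 and 121 TPM, ESRRA at 99.3 and 112 TPM and NR2F6 at 95.3 and 109 TPM. PPARG was at 56.3 and 50.8 TPM and the vitamin D receptor VDR at 39.1 and 40.4 TPM. The glucocorticoid receptor NR3C1 was at 12.6 and 9.79 TPM. Of the other steroid receptors, PGR had no count, ESR1 had 44 and 40 counts, NR3C2 had 12 and 15 and ESR2 had 7 and 10, all under 1 CPM.

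HOX genes, which hold a cell's position along the body axis, were expressed from 3 of their 4 clusters. In the HOXA cluster 9 of 11 genes were expressed, in HOXB 6 of 10 and in HOXC 4 of 9, but in HOXD 0 of 9, where 5 genes had no count in either library and the highest, HOXD8, had 10 and 8. HOXB9 was highest at 58.1 and 59.8 TPM, then HOXA9 at 44.6 and 45.2 TPM and HOXA11 at 23.2 and 21.7 TPM. The HOXC cluster was led by HOXC8 at 14.4 and 14.2 TPM.

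Neuroendocrine genes, which mark a form of prostate cancer that no longer depends on androgens, were mostly not expressed. Only 4 of 20 reached 1 CPM (20%), against 59.5% of protein-coding genes. PEG10, an imprinted retroelement-derived gene, was at 103 and 102 TPM and REST, which represses neuronal genes, at 24.4 and 23.5 TPM. The enolase ENO2 was at 7.98 and 7.55 TPM and ONECUT2 at 6.01 and 5.60 TPM. REST is a repressor of the programme, so 3 of these 4 are markers of it. SYP, the gene of synaptophysin, had 31 and 43 counts and CHGA, the gene of chromogranin A, 3 and 1. The transcription factor NKX2-1 and the vesicle genes SYT4 and SCG3 had no count in either library, and INSM1 and NEUROD1 had 1 and 0 each.

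Tumour suppressor genes were nearly all transcribed, with 40 of 42 expressed (95.2%), against 59.5% of protein-coding genes. Their median of 15.3 TPM was below the 25.9 TPM of the median expressed protein-coding gene. GSTP1, a glutathione transferase often silenced in prostate tumours, was highest at 376 and 385 TPM. CDKN1A, the p21 inhibitor of cyclin-dependent kinases, was at 239 and 287 TPM and TGFBR2, a receptor of TGF-beta, at 177 and 158 TPM. RB1 was at 19.2 and 17.6 TPM, CDKN2A at 35.9 and 40.0 TPM, and SMAD4 at 5.34 and 6.13 TPM. The lowest members included an adhesion gene. CTNNA1, which encodes alpha-E-catenin, the link between E-cadherin and actin, had 73 and 69 counts, or 0.595 and 0.544 TPM. FHIT had 19 and 20 counts and DCC, a netrin receptor, had 1 and 0, and these 2 were under 1 CPM.

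The other catenins that bind E-cadherin were well above CTNNA1. CTNNB1, the gene of beta-catenin, had 29230 and 29333 counts, CTNND1, the gene of p120-catenin, had 24840 and 25767 and JUP, the gene of plakoglobin, had 13305 and 14774. VCL, which encodes vinculin and is related to alpha-catenin, was at 606 and 556 TPM. The neuronal CTNNA2 had no count in either library. The E-cadherin complex was thus transcribed at 177 and 171 TPM for CTNNB1 and 286 and 284 TPM for CDH1, with CTNNA1 under 1 TPM.

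Neighbours in the genome were examined for the low genes. On chromosome 5, HSPA9 next to CTNNA1 had 35265 and 34738 counts and ETF1 had 14921 and 14513. LRRTM2, a neuronal gene that lies within the CTNNA1 locus, had no count, and SIL1 beyond it had 452 and 531. The low count thus lay between expressed genes. DCC lies between MEX3C (1426 and 1475 counts) and MBD2 (6821 and 6956 counts), and FHIT between C3orf67 (458 and 481) and PTPRG (83 and 96).

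Oncogenes and growth regulators were expressed in 46 of 52 cases (88.5%), against 59.5% of protein-coding genes. FOSL1, the AP-1 subunit FRA-1, was highest at 1098 and 1250 TPM. MYC was at 659 and 639 TPM, and cyclin D1, from CCND1, at 494 and 505 TPM. The receptor kinases AXL (141 and 147 TPM), MET (137 and 115 TPM) and EGFR (112 and 101 TPM) were above ERBB2 (13.04 and 14.02 TPM) and ERBB3 (6.03 and 6.24 TPM), and ERBB4 had no count. The kinase AKT1 was at 68.7 and 70.6 TPM and AKT2 at 29.4 and 30.8 TPM. ETS factors fused in prostate cancer differed: ETV4 was at 81.5 and 80.2 TPM and ETV5 at 25.8 and 25.5 TPM, ETV1 at 2.05 and 2.46 TPM, and ERG had 1 and 1 counts. TERT, the telomerase reverse transcriptase, had 92 and 92 counts. MYCN had 1 and 0 counts, and CCND2 and STAT3 had none, so that CCND1 and CCND3 (22.0 and 22.1 TPM) were the D-type cyclins detected above 1 CPM.

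STAT3 transmits the signals of IL6 and the other gp130 cytokines and is active in most cell types. No count fell on it in either library (ENSG00000168610.14, chromosome 17, 42313324 to 42388568 in GRCh38). Its neighbours were then looked up, a choice made after this value was seen. The 12 consecutive protein-coding genes from DHX58 to CAVIN1, between 42101404 and 42423517, each had at most 1 count per library. They are DHX58, KAT2A, AC099811.2, HSPB9, RAB5C, KCNH4, HCRT, GHDC, STAT5B, STAT5A, STAT3 and CAVIN1. Several of them, such as the acetyltransferase KAT2A, the endosomal GTPase RAB5C and the transcription factor STAT5B, are active in most cell types, while HCRT and KCNH4 are genes of the brain.

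Expression resumed at both ends of this stretch of 322 kb. Before it, NKIRAS2 had 2899 and 3468 counts and DNAJC7 had 4037 and 3823, with ZNF385C (26 and 50) and C17orf113 (75 and 126) low in between. After it, ATP6V0A1, a subunit of the proton pump, had 9 and 25 counts, NAGLU had 650 and 758 and COASY had 5426 and 5837. Of the 12 genes, AC099811.2 shares 100% of its exonic bases with other genes, RAB5C 30.4% and KAT2A 10.8%, and the other 9 share none. Runs of consecutive protein-coding genes with at most 3 counts in each library numbered 2747. Of these, 30 were at least as long as this one, itself included, and the longest held 42 genes. Runs of this length occurred elsewhere, but they were not sorted by how widely their genes are active. The count does not show whether runs that hold widely active genes are common. DNA was not measured, and why these genes had no reads was not tested. Of the other STAT genes, STAT2 was at 21.5 and 22.1 TPM and STAT6 at 7.54 and 8.75 TPM.

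**Figure D5:**
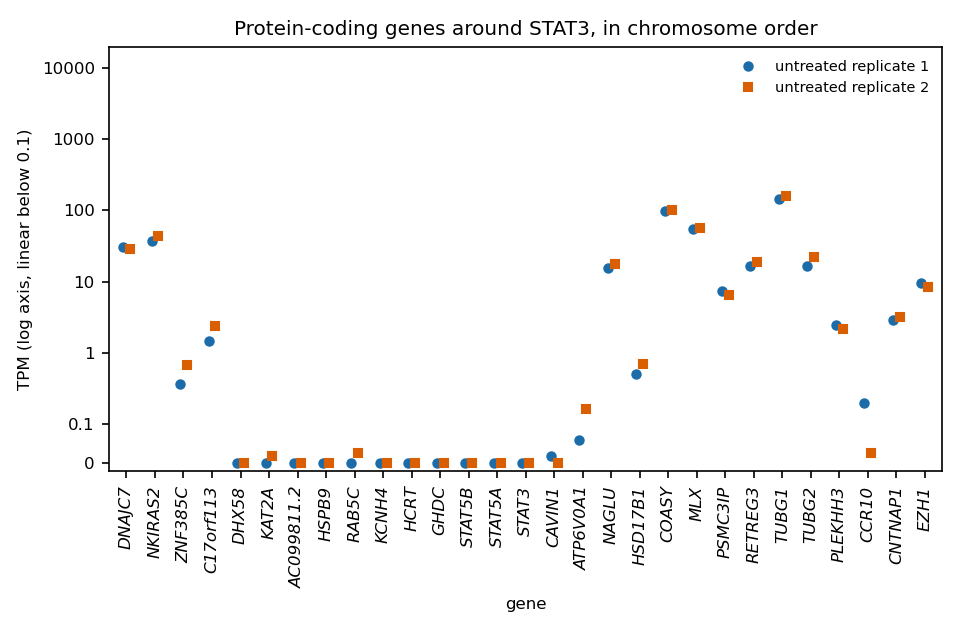
Protein-coding genes are shown in chromosome order, 14 on each side of STAT3, with their level in TPM (log axis, linear below 0.1) in untreated replicate 1 (circles) and replicate 2 (squares). The 12 genes from DHX58 to CAVIN1 lie at or next to 0, and most genes on both sides lie above them, with ATP6V0A1 and CCR10 the lowest of these.

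Genes of invasion were led by the urokinase system. Of 26 proteases and inhibitors 20 were expressed (76.9%), against 59.5% of protein-coding genes. PLAU, the urokinase that activates plasminogen, was at 1490 and 1451 TPM, its receptor PLAUR at 235 and 262 TPM and the inhibitor TIMP1 at 529 and 586 TPM. Matriptase, from ST14, was at 367 and 378 TPM, with its inhibitor SPINT1 at 179 and 179 TPM. Among matrix metalloproteinases, the membrane-bound MMP14 was at 129 and 134 TPM and MMP9 at 14.5 and 17.9 TPM, whereas MMP2 had 35 and 40 counts, MMP7 had 2 and 0, and the inhibitor TIMP3 had none. HPN, the protease hepsin that is high in many prostate tumours, had 3 and 3 counts.

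Of 23 genes tied to bone metastasis 14 were expressed (60.9%), close to the 59.5% of protein-coding genes. They were led by DKK1 and IL11. PTHLH, the parathyroid hormone-related protein that drives bone resorption, was at 104 and 96.6 TPM, and EDN1, the endothelin that stimulates osteoblasts, at 127 and 121 TPM. The BMP antagonist NOG was at 87.6 and 106 TPM, and TNFRSF11B, which encodes the decoy receptor osteoprotegerin, at 79.2 and 75.7 TPM. Its ligand RANKL, from TNFSF11, had no count. The bone genes IBSP (no count), SPP1 (0 and 2) and ALPL (0 and 2) were not expressed. RUNX2, the transcription factor of osteoblasts, was at 21.9 and 22.0 TPM. CXCR4, the receptor for CXCL12, had 1 and 0 counts, so that neither the ligand nor this receptor was detected.

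Integrins, the receptors for matrix, were expressed from 13 of 24 genes (54.2%), near the 59.5% of protein-coding genes. ITGB1 was at 994 and 872 TPM, the laminin receptor subunit ITGA3 at 356 and 366 TPM, and the collagen receptor subunit ITGA2 at 244 and 227 TPM. ITGB2, a subunit otherwise typical of white blood cells, was at 32.9 and 33.0 TPM, while its usual partners ITGAL, ITGAM and ITGAX had at most 5 counts. Stem-cell and surface genes were expressed in 15 of 20 cases (75%), against the same 59.5%. The retinaldehyde dehydrogenase ALDH1A3 was at 1068 and 999 TPM, far above ALDH1A1 at 5.28 and 5.31 TPM. The hyaluronan receptor CD44 was at 441 and 455 TPM and CD24 at 250 and 257 TPM, so both of these surface markers were present in the bulk RNA. PROM1, the gene of CD133, had 2 and 1 counts, and NANOG had none.

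Calcium-binding S100A proteins were expressed from 12 of 16 genes, against 59.5% of protein-coding genes, and made up 0.655% and 0.653% of TPM. S100A9 led, S100A11 was at 882 and 1015 TPM and S100A10 at 596 and 585 TPM. S100A8, the partner of S100A9 in calprotectin, was at 123 and 110 TPM, well below S100A9. Of the 16 kallikrein genes only KLK5 (641 and 673 counts) and KLK6 (618 and 749 counts) were expressed, which are skin and brain members of the family, beside the prostate members KLK2, KLK3 and KLK4 at or near 0. Of 24 claudins 8 were expressed, also against 59.5% of protein-coding genes.

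Machinery of growth was transcribed throughout. All 79 cytosolic ribosomal protein genes were expressed, with a median of 646 TPM and 6.25% and 5.98% of TPM in sum, as were all 27 proliferation genes, with a median of 121 TPM. Of these PCNA, the clamp of DNA polymerase, was at 484 and 475 TPM and CCNB1, a cyclin of mitosis, at 387 and 368 TPM. Translation factors (19 of 19) were led by EEF1A1 at 2150 and 1950 TPM and the poly(A)-binding PABPC1 at 2095 and 1939 TPM. EEF1G, another elongation factor subunit, had only 138 and 129 counts, and 99.9% of its exonic bases are shared with other annotated genes. Glycolysis genes (20 of 21) were led by GAPDH at 2308 and 2246 TPM and ENO1 at 1311 and 1265 TPM, and LDHA, which makes lactate, was at 798 and 743 TPM. All 34 cytoskeletal and annexin genes were expressed.

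Genes normally confined to the germ line were mostly off. Of 35 cancer-testis genes 2 were expressed (5.71%), against 59.5% of protein-coding genes, and 21 had no count in either library. PRAME was at 12.4 and 12.3 TPM, and TEX14, a protein of germ-cell bridges, had 67 and 96 counts. MAGEA3 had 19 and 35 counts and MAGEA12 had 37 and 25, under 1 CPM. Counts of near-identical copies in these families are uncertain.

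Abundant noncoding RNAs included NORAD, a cytoplasmic RNA that binds Pumilio proteins, at 309 and 314 TPM. ZFAS1, a host of small nucleolar RNAs, was at 574 and 550 TPM with 46.9% of its exonic bases shared with other genes. The nuclear RNAs MALAT1 (104 and 119 TPM) and NEAT1 (27.5 and 26.5 TPM) were present. The other 6 of the 10 highest by counts were AL161431.1, FGD5-AS1, PSMA3-AS1, AL355916.1, VPS9D1-AS1 and AC015712.2. Where their exons overlap another gene, reads cannot be told apart because the counting strand is unknown; this holds for 29.55% of the exonic bases of VPS9D1-AS1, 24.35% of those of AC015712.2, 6.45% of those of FGD5-AS1, 4.71% of those of PSMA3-AS1 and none of those of AL355916.1 and AL161431.1.

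Markers of other cell types were few. The pan-leukocyte gene PTPRC had 4 and 2 counts, and CD4, LYZ and MPO had none. Of 17 leukocyte markers 3 were expressed, with sums of 49.5 and 55.1 CPM over the list, of which CD68 held 41.7 and 45.1 CPM, and CD68 shares 85.8% of its exonic bases with other genes. The other expressed members were CSF1R, with 302 and 395 counts, and the T-cell gene CD8A, with 64 and 79. None of 10 red-cell markers was expressed, and HBB, HBA1 and HBA2 had no count. Of 9 endothelial markers PECAM1 (1042 and 1069 counts) and TIE1 (117 and 98) were expressed, whereas VWF had 2 and 1 counts and CDH5 had 17 and 6.

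COL1A1, with 1359 and 1566 counts, was the only expressed member of 9 fibroblast markers, and DCN had none. SERPINA1, a protease inhibitor of liver and epithelia at 75.0 and 75.8 TPM, was the only one of 9 liver markers, with ALB at 21 and 18 counts. Muscle markers gave 2 of 8 (ACTG2 and TNNT2), with DES at 1 and 3 counts, and neural markers 4 of 8 (MBP, SNAP25, GAD1 and MAP2), with GFAP at 0 and 2. Bone markers gave 2 of 7, RUNX2 and COL1A1. In each of these marker lists except the neural one, most members were below 1 CPM.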

How the data were processed

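RNA of untreated PC3 cells was measured in 2 libraries. Each library has 1 deposited table of raw counts by gene symbol, laid out as HTSeq writes them. Trimmomatic, STAR, SAMtools, deepTools and hg38 were used, per the submitters' processing notes; versions, annotation release, strand setting and RNA selection: not given in the sources used here, so that overlapping and antisense genes cannot be told apart, and near-identical genes are uncertain. The 5 summary lines were left out of totals: reads outside genes were 6.27% and 6.29% of reads in the table, ambiguous reads 4.35% and 4.43%, and the line for multiple alignments was 0.

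CPM used the sum of all gene rows. Of 33514 symbols, 33164 (99.8% of counts) matched 1 gene of GENCODE 29, which gave coordinates and merged exon lengths for TPM, scaled to 1000000 over matched genes. Python 3.11.15, pandas 2.3.3 and, for TMM scaling as an alternative, edgeR 4.0.16 were used. The level and ratio steps were tested on simulated data. Genes were named by rule: in each list the 4 highest by TPM and those below 1 CPM, all members of the prostate, keratin, tumour suppressor and oncogene lists, HOX genes, the 20 highest by TPM, 10 by counts and 10 noncoding, the 10 largest ratios between libraries, and neighbours of tumour suppressors below 1 CPM. Further genes (neighbours of STAT3 and CTNNA1, the STAT family, keratins, kallikreins, S100A genes and other list members) were chosen after their values were seen. The members and lists were chosen with earlier results of these data known. A planned description of promoter CpG content was void, since 14812 of 19759 protein-coding genes (75.0%) had a window. Heme-treated libraries were not analysed here, and some members of the lists are counted but not reported here by name.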

Additional observations from a re-analysis of the deposited data

How the results depend on the processing

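The number of expressed genes was within 1.5 times the reported value at 0.5 CPM (13504), at 2 CPM (11649) and at 10 raw counts (15071), and with either replicate left out (12701 to 12737). Without mitochondrial genes the 10 highest genes held 2.95% of counts and the 100 highest 14.1%, against 3.53% and 15.5% over all genes. In TPM, with mitochondrial genes kept, the 10 highest held 9.64% and the 100 highest 25.7%. At 2 CPM, 1 gene in place of 2 was expressed among the cancer-testis, the endothelial and the muscle genes, and counts of the other lists stayed within 1.5 times. Of the 20 highest genes by TPM, 17 were shared when the longest transcript gave the length, and 10 when no length was used. Genes beyond 1.5-fold between the libraries numbered 176 at a mean of at least 1 CPM and 5 at a mean of at least 5 CPM, against 61 at 2 CPM and 59 with TMM scaling. Library sizes without mitochondrial genes raised levels by 2.76% to 2.78% among 413 expressed genes, which were list members or among the most abundant. For 164 of them this was more than the spread between libraries, and TMM scaling moved none beyond it. Leaving out either library moved the mean levels of these genes by -29.9% to 29.9%. No paired analysis was possible because only 1 group of libraries was described. Depth limits statements on genes with a few counts, where 0 allows up to 3.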
